A study of Homo sapiens with 26 samples.

Results

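Messenger RNA levels of 10 genes that sense stalled replication forks and broken DNA and hold the cell cycle were followed across 26 single cell-derived cell lines (SCDCLs) of pancreatic cancer. The genes were ATR, ATRIP, TOPBP1, CLSPN, CHEK1, ATM, CHEK2, WEE1, PKMYT1 and SLFN11. They were taken by name, not by their values, and all 10 were found among the 41078 genes of the table. An SCDCL is a culture grown from 1 cell after limiting dilution, and each was sequenced once. The labels name 12 SCDCLs of BxPC3, a differentiated line that is known to lack SMAD4, and 14 of Panc-1, a mesenchymal line that is known to keep it. Gemcitabine is given as treatment for all 26, while in the study's methods the drug appears in separate viability assays alone, so treated and untreated cells cannot be compared here. Levels are given in TPM, a transcript abundance that is divided by transcript length and scaled to one library total, so that genes can be compared with each other.

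The labels went against SMAD4. It was at 0 to 0.0440 TPM in 12 libraries, called SMAD4-low, and at 28.1 to 52.2 TPM in the other 14, called SMAD4-expressing, with none between. Of the SMAD4-low libraries 5 were labelled BxPC3 and 7 Panc1, and of the SMAD4-expressing ones 7 and 7. CDH1 was at 90.8 to 198 TPM in the SMAD4-low and 0.338 to 7.74 TPM in the SMAD4-expressing libraries, and VIM at 1.42 to 73.2 against 3047 to 4526 TPM. Of the epithelial carcinoma markers, the keratins KRT8, KRT18 and KRT19 were high in every library, whereas EPCAM was at 239 to 424 TPM in the SMAD4-low and 7.49 to 25.5 TPM in the SMAD4-expressing libraries. At the same time the leukocyte markers PTPRC and CD3E stayed at or under 0.535 TPM. Marker lists of other cell types summed to 5.37 to 27.4 TPM (SMAD4-low) and 42.5 to 141 TPM (SMAD4-expressing) for leukocytes, nearly all of it CD68. They summed to 3.10 to 16.9 and 0.321 to 5.38 TPM for endothelium and to 9.65 to 27.9 and 2.66 to 39.4 TPM for fibroblasts, and their part in the results was not tested. All libraries lacked CDKN2A, listed at 0. The library total was 27144920 to 34945608 estimated counts in the SMAD4-low and 27035724 to 32601392 in the SMAD4-expressing set. Clones of a set may share 1 parental line, so the p-values below measure only the spread between these clones. A difference between the sets cannot be told apart from any other difference between their cells of origin.

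When a replication fork stalls, as after incorporation of gemcitabine into DNA, single-stranded DNA coated with RPA recruits the kinase ATR through its partner ATRIP. TOPBP1 then activates ATR, and CLSPN carries the signal to the kinase CHEK1. Double-strand breaks instead activate the kinase ATM and its target CHEK2. Both arms restrain CDK1 and CDK2, and WEE1 and PKMYT1 inhibit CDK1 by direct phosphorylation. SLFN11 binds to stressed forks and blocks them irreversibly, and cancer cells that lack it are known to tolerate many drugs that damage replicating DNA.

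The SMAD4-low and SMAD4-expressing sets differed most in SLFN11, ATM and CLSPN. The promoter windows of these 3 genes, from 250 bases before to 50 bases after a transcription start, are shown because their transcripts carried the largest differences. They are RefSeq sequences of GRCh38.p14, 5′ to 3′ on the gene's strand, with capitals marking CCAAT boxes (CCAAT or its reverse ATTGG) and E2F-type motifs on either strand (TTCCCGC, also spelled TTCGCGC, or with TTGCCGC as another spelling and TTGGCGC as the last). The windows lie at chr17:35373572-35373871 (minus strand) for SLFN11, chr11:108222817-108223116 (plus strand, the first of 2 windows) for ATM and chr1:35769929-35770228 (minus strand) for CLSPN.
SLFN11: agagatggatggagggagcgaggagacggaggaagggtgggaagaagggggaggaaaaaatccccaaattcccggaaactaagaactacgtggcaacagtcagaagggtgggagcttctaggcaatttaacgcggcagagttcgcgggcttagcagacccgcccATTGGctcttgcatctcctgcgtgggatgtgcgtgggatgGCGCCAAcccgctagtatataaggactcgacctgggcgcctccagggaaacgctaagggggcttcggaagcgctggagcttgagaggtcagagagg
ATM: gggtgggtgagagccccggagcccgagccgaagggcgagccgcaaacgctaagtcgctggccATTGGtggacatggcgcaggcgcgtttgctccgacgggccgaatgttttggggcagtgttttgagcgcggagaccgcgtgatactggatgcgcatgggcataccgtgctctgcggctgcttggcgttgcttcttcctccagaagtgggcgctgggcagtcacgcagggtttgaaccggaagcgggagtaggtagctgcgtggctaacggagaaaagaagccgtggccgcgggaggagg
CLSPN: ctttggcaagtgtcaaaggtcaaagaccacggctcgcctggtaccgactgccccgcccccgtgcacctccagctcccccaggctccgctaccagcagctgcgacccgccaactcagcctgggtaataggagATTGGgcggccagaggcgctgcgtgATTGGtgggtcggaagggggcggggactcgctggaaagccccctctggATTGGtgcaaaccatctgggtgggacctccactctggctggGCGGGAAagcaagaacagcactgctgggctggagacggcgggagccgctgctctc

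Windows were found for 8 of the 10 genes, all but WEE1 and PKMYT1. An E2F-type motif stood in those of 3 genes, TOPBP1, CLSPN and SLFN11, against 15.3% of 27305 genes with a window. A CCAAT box stood in at least 1 window of 6 of the 8, namely ATRIP, CLSPN, CHEK1, ATM, CHEK2 and SLFN11, against 39.7% of these genes. The SLFN11 window held 1 motif of each kind, with 18 CpG dinucleotides. The CLSPN window held 3 CCAAT boxes and 1 E2F-type motif, also with 18 CpG dinucleotides, and the ATM window had 1 CCAAT box and 30. These matches describe letters and are not binding sites.

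Between the SMAD4 sets, 2 of the 10 genes differed by more than 2-fold at an adjusted p under 0.05 (edgeR's quasi-likelihood test with Benjamini-Hochberg adjustment over all genes), against 39% of 16007 genes tested. SLFN11 was higher in the SMAD4-low set (20% of all genes were) and ATM was lower (19%). Without the 2-fold limit 7 of the 10 passed, against 76.7% of all genes. Of these ATR, TOPBP1, PKMYT1 and SLFN11 were higher in the SMAD4-low set (38% of all genes) and CLSPN, ATM and WEE1 lower (38.7%). The ranges of the sets overlapped for every one of the 10 genes, whereas 30% of all genes had ranges that did not. The median size of the difference was 0.38 on the log2 scale for the 10 genes and 0.74 for all genes tested. In bulk RNA, fewer cells with a transcript and less of it per cell cannot be told apart. The plot of TPM by library shows every value.

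**Figure D1:**
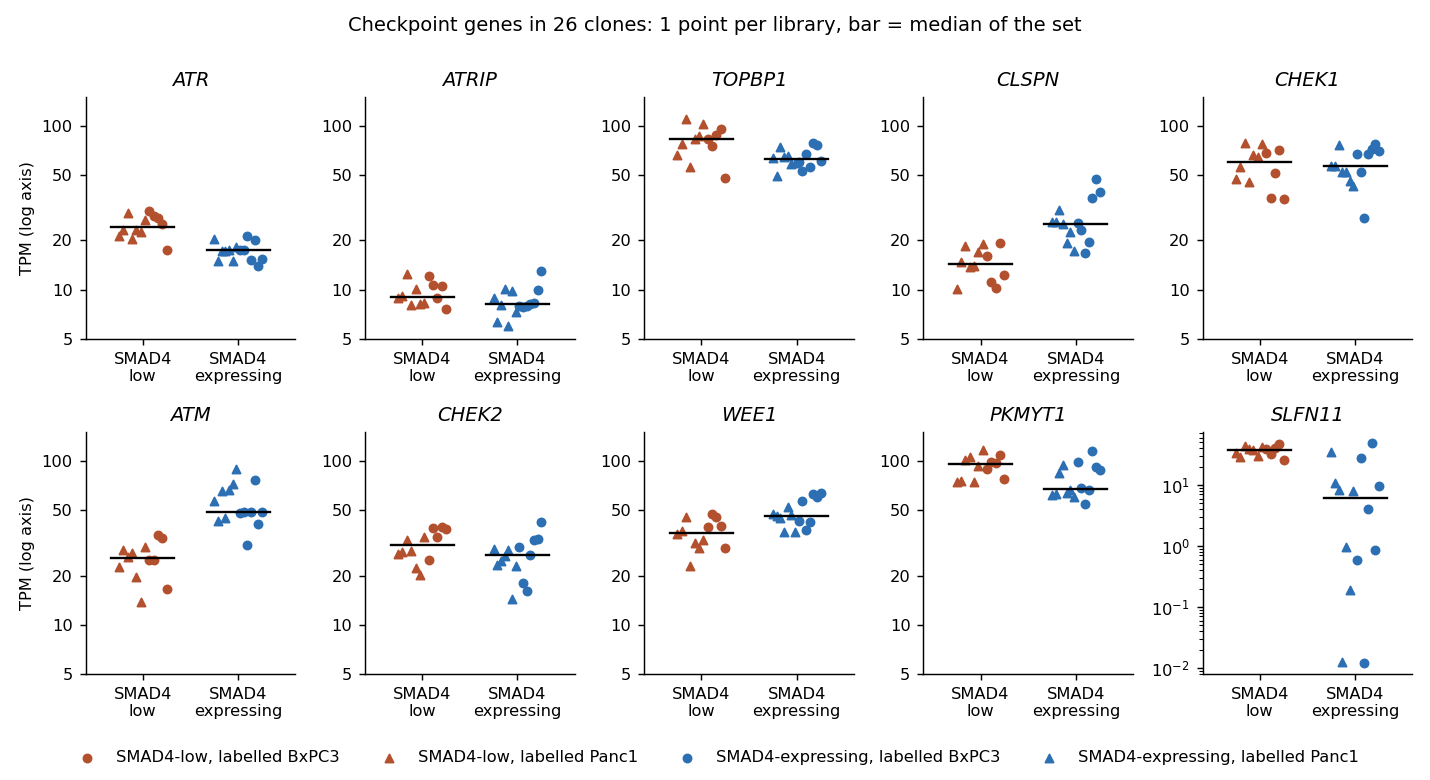
TPM of the 10 checkpoint genes on log axes, with 1 point per library (12 SMAD4-low in red, 14 SMAD4-expressing in blue, circles labelled BxPC3, triangles labelled Panc1) and a bar at the median of each set. SLFN11 has an axis of its own, from 0.0119 to 48.7 TPM, and is spread widely in the SMAD4-expressing set, while ATM is mostly higher there.

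The ATR arm was described first. ATR (ENSG00000175054, GRCh38 chromosome 3, 142449007 to 142578733) was at 17.5, 24.1 and 30.1 TPM (lowest, median and highest) in the SMAD4-low libraries and at 13.9, 17.4 and 21.1 TPM in the SMAD4-expressing ones. All 12 SMAD4-low libraries lay above the median of the other set. Its log2 fold change of SMAD4-low over SMAD4-expressing was 0.51 ± 0.077 (SE, n = 12 and 14 libraries, edgeR adjusted p = 8.31e-07). This corresponds to 1.43-fold more ATR mRNA.

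ATRIP (ENSG00000164053, chromosome 3, 48446710 to 48467645), the partner that brings ATR to the fork, was at 7.62, 9.04 and 12.4 TPM in the SMAD4-low and 5.96, 8.13 and 12.9 TPM in the SMAD4-expressing libraries. The sets overlapped almost entirely, and the log2 fold change of 0.18 ± 0.097 did not pass (SE, edgeR adjusted p = 0.0897). It had an adjusted p of 0.0494 with DESeq2, and by edgeR of 0.0245 without library 23 and 0.0434 without library 24. The exonuclease gene TREX1 lies within ATRIP on the same strand, at 4.56 to 9.32 TPM in the SMAD4-low and 0 to 1.07 TPM in the SMAD4-expressing set. The mean effective transcript length of ATRIP was 2568 to 3355 bases in the SMAD4-low and 1866 to 2736 bases in the SMAD4-expressing libraries. The level of ATRIP is therefore uncertain as to how reads were divided between overlapping transcripts, and the part of this division in its level was not tested.

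TOPBP1 (ENSG00000163781, chromosome 3, 133598175 to 133662380), the activator of ATR, was at 48.0, 83.0 and 110 TPM in the SMAD4-low and 49.3, 62.5 and 78.4 TPM in the SMAD4-expressing libraries. Both the lowest and the highest libraries of all 26 were SMAD4-low. Its log2 fold change was 0.36 ± 0.091 (SE, edgeR adjusted p = 0.000868). In 10 of 12 SMAD4-low libraries it lay above the median of the other set.

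CLSPN (ENSG00000092853, chromosome 1, 35720218 to 35769978), the adaptor that presents CHEK1 to ATR, differed the other way. It was at 10.0, 14.3 and 19.1 TPM in the SMAD4-low and 16.6, 25.2 and 47.1 TPM in the SMAD4-expressing libraries. No SMAD4-low library reached the median of the other set, and the 3 highest values of all belonged to SMAD4-expressing libraries labelled BxPC3 (numbers 20, 23 and 22, with 36.1, 39.3 and 47.1 TPM). The log2 fold change was -0.85 ± 0.15 (SE, edgeR adjusted p = 8.56e-06), that is 1.804-fold more CLSPN mRNA in the SMAD4-expressing set. It stayed between -0.90 and -0.76 when each library was left out in turn.

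CHEK1 (ENSG00000149554, chromosome 11, 125625163 to 125676255), the effector kinase of this arm, did not pass. Its levels were 35.8, 60.1 and 78.6 TPM in the SMAD4-low and 27.3, 56.5 and 76.7 TPM in the SMAD4-expressing libraries. For CHEK1 the log2 fold change was 0.0044 ± 0.13 (SE, edgeR adjusted p = 0.977), with a 95% confidence interval of -0.27 to 0.28. The gene STT3A overlaps CHEK1 on the same strand, at 345 to 597 TPM in the SMAD4-low and 201 to 469 TPM in the SMAD4-expressing set.

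Library 18, SMAD4-expressing and labelled BxPC3, stood at the edge of its set for several of these genes. It had the lowest CHEK1 (27.3 TPM), CLSPN (16.6 TPM), ATM (30.7 TPM), PKMYT1 (54.8 TPM) and SLFN11 (0.0119 TPM) of the set and the highest ATR (21.1 TPM). Its MKI67, at 51.5 TPM, was next to the set's median of 51.9 TPM. Its TOP2A, used below in place of MKI67, was lower in the set's range. It was at 189 TPM, between 139 (library 14) and 333 TPM (library 20). Without it, the log2 fold change between the sets was 0.54 for ATR, -1.18 for ATM and -0.052 for CHEK1.

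Of the break arm, ATM was called and CHEK2 was not. ATM (ENSG00000149311, chromosome 11, 108223044 to 108369102) was at 13.7, 25.6 and 35.6 TPM in the SMAD4-low and 30.7, 48.9 and 89.0 TPM in the SMAD4-expressing libraries. The sets overlapped only where 2 SMAD4-low libraries (numbers 25 and 24, at 33.8 and 35.6 TPM) exceeded library 18. The log2 fold change was -1.14 ± 0.13 (SE, edgeR adjusted p = 1.29e-08), that is 2.20-fold more ATM mRNA in the SMAD4-expressing set, and it ranged from -1.18 to -1.08 with each library left out. The same order held within each label. Among libraries labelled BxPC3, ATM was at 16.5 to 35.6 TPM in the SMAD4-low and 30.7 to 76.2 TPM in the SMAD4-expressing set, and among those labelled Panc1 at 13.7 to 29.8 and 43.0 to 89.0 TPM.

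CHEK2 (ENSG00000183765, chromosome 22, 28687743 to 28742422), the target of ATM, was at 20.04, 30.6 and 39.3 TPM in the SMAD4-low and 14.3, 26.6 and 42.3 TPM in the SMAD4-expressing libraries. The SMAD4-expressing range enclosed the SMAD4-low one. Its log2 fold change was 0.24 ± 0.14 (SE, edgeR adjusted p = 0.113), with a 95% confidence interval of -0.042 to 0.53, and the adjusted p was 0.0450 without library 23. CHEK2 has near-identical partial copies elsewhere in the genome, so its level is uncertain. The authors deposited 30 kallisto resamples of each library, which measure quantification error. The SD of CHEK2 over them reached 0.32 on the log2 scale in 1 library, against a median of 0.075 in the SMAD4-low and 0.083 in the SMAD4-expressing set.

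The inhibitory kinases of CDK1 differed in opposite directions. WEE1 (ENSG00000166483, chromosome 11, 9573670 to 9593457), which acts in the nucleus, was at 23.05, 36.6 and 47.2 TPM in the SMAD4-low and 37.0, 46.4 and 63.7 TPM in the SMAD4-expressing libraries. Only 1 SMAD4-low library exceeded the median of the other set. Its log2 fold change was -0.40 ± 0.10 (SE, edgeR adjusted p = 0.00108).

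PKMYT1 (ENSG00000127564, chromosome 16, 2968024 to 2980479), which acts at membranes of the cytoplasm, had the highest median of the 10 genes in both sets. It was at 74.4, 95.3 and 116 TPM in the SMAD4-low and 54.8, 67.4 and 115 TPM in the SMAD4-expressing libraries. All 12 SMAD4-low libraries lay above the median of the other set, although the highest SMAD4-expressing values came close to the top. Its log2 fold change was 0.28 ± 0.10 (SE, edgeR adjusted p = 0.0149). PAQR4 overlaps PKMYT1 on the opposite strand, at 20.4 to 30.5 TPM in the SMAD4-low and 22.8 to 54.4 TPM in the SMAD4-expressing set. Libraries were strand-specific, but whether the counting used strand is not given in the sources used here.

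**Figure D2:**
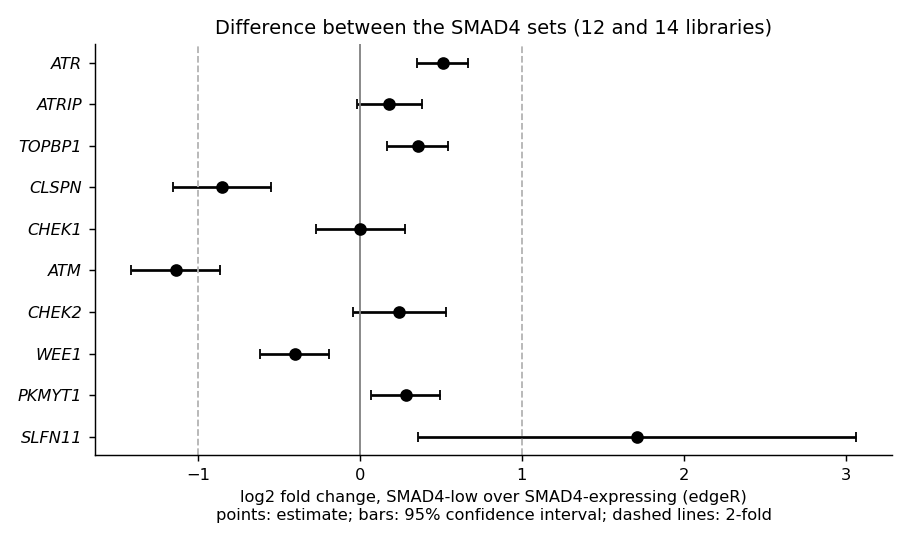
Log2 fold change of SMAD4-low (n = 12) over SMAD4-expressing (n = 14) libraries from edgeR for each gene, with 95% confidence intervals as bars and dashed lines at 2-fold. ATM lies below -1 and SLFN11 above 1, the latter with an interval of 0.36 to 3.06. The interval of CHEK1 is centred near 0.

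SLFN11 (ENSG00000172716, chromosome 17, 35350305 to 35373701) varied more among the SMAD4-expressing clones than among the SMAD4-low ones. In the SMAD4-low libraries it was at 25.6, 37.7 and 46.6 TPM, with all 12 above 15 TPM. In the SMAD4-expressing libraries it was at 0.0119, 6.03 and 48.7 TPM. Of these 14 libraries 6 were under 1 TPM, 5 were between 1 and 15 TPM and 3 lay within or above the SMAD4-low range.

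In rising order, the 6 SMAD4-expressing libraries under 1 TPM held 0.012, 0.013, 0.19, 0.59, 0.87 and 0.96 TPM of SLFN11 (numbers 18, 11, 13, 15, 22 and 12). The lowest had 0.587 estimated counts, against 1459 in the lowest SMAD4-low library. The next 5 held 3.99, 8.07, 8.36, 9.58 and 10.7 TPM (numbers 19, 14, 10, 23 and 9). The top 3 held 28.2, 35.4 and 48.7 TPM (numbers 17, 8 and 20). The label did not sort them, as 3 of the 6 lowest were labelled BxPC3 and 3 Panc1.

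The log2 fold change of SLFN11 between the sets was 1.71 ± 0.66 (SE, edgeR adjusted p = 0.0207), or 3.27-fold, with a 95% confidence interval of 0.36 to 3.06. By limma the difference was 2.76 on the log2(TPM + 1) and 3.61 on the log2(TPM + 0.1) scale. Leaving out single libraries gave 1.602 to 2.13, with an adjusted p of 0.00462 (without library 20) to 0.0310 (without library 19). This average covers clones with almost no SLFN11 transcript and clones at the SMAD4-low level. The SD of log2(TPM + 1) was 1.98 in the SMAD4-expressing set, larger than that of 99.9% of 13826 genes with a mean of at least 1 TPM there, and it was 2.99 on the log2(TPM + 0.1) scale. In the SMAD4-low set it was 0.26, larger than that of 38.5% of 14375 genes. The SD over the kallisto resamples of a SMAD4-expressing library had a median of 0.085 and reached 0.77 in 1 library.

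**Figure D3:**
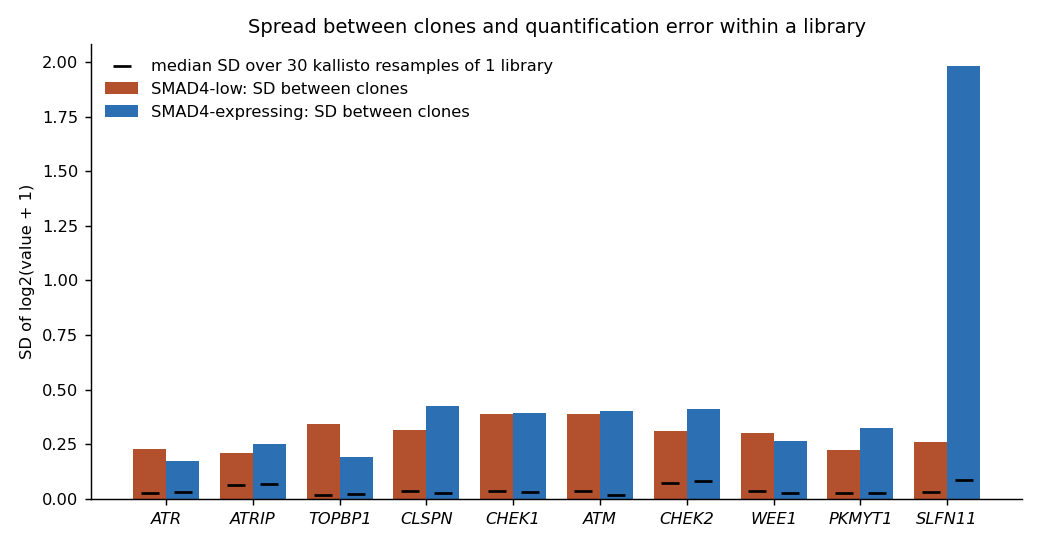
SD of log2(TPM + 1) between the clones of each set (bars, from 0) for the 10 genes, with the median SD of log2(estimated counts + 1) over 30 kallisto resamples of a library as black ticks. SLFN11 in the SMAD4-expressing set stands at 1.98, and the other bars lie between 0.17 and 0.43.

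For the other genes the SD between clones of a set was between 0.17 (ATR, SMAD4-expressing) and 0.43 (CLSPN, SMAD4-expressing). It was 3.35 (ATRIP, SMAD4-low) to 20.6 times (ATM, SMAD4-expressing) the median SD over kallisto resamples. Each clone was sequenced once, so the spread between clones includes the error of culture and library preparation, which the resamples do not measure.

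Schlafen genes next to SLFN11 on chromosome 17 were measured in the clones that had almost none of it. SLFN12 was at 16.3 to 48.7 TPM and SLFN13, an RNase, at 28.8 to 93.5 TPM in the SMAD4-expressing set, including the libraries in which SLFN11 was under 1 TPM. SLFN5 was at 4.18 to 28.4 TPM in the SMAD4-low and 0.170 to 7.61 TPM in the SMAD4-expressing libraries, a log2 fold change of 3.41 ± 0.46 (SE, edgeR adjusted p = 1.65e-07). SLFN12L was at 2.39 to 5.77 against 0.283 to 1.41 TPM, a log2 fold change of 2.54 ± 0.24 (SE, edgeR adjusted p = 1.25e-10). SLFN12 was lower in the SMAD4-low set by less than 2-fold (log2 fold change -0.96, edgeR adjusted p = 6.59e-07), and SLFN13 did not pass (0.17, adjusted p = 0.326). SLFN14 was at or under 0.036 TPM and was not tested.

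Across the 14 SMAD4-expressing libraries the correlation of log2(TPM + 1) of SLFN11 was r = 0.74 (rho = 0.76) with SLFN12, r = 0.54 (rho = 0.51) with SLFN13 and r = -0.00023 (rho = 0.055) with SLFN5. Across the 12 SMAD4-low libraries the values were 0.43, 0.80 and -0.058. These are descriptions over clones that may share a parental line and have equal library protocols. Library 20 held the highest SLFN11, SLFN12 and SLFN13 of the SMAD4-expressing set, and library 11 the lowest SLFN12 and SLFN13.

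**Figure D4:**
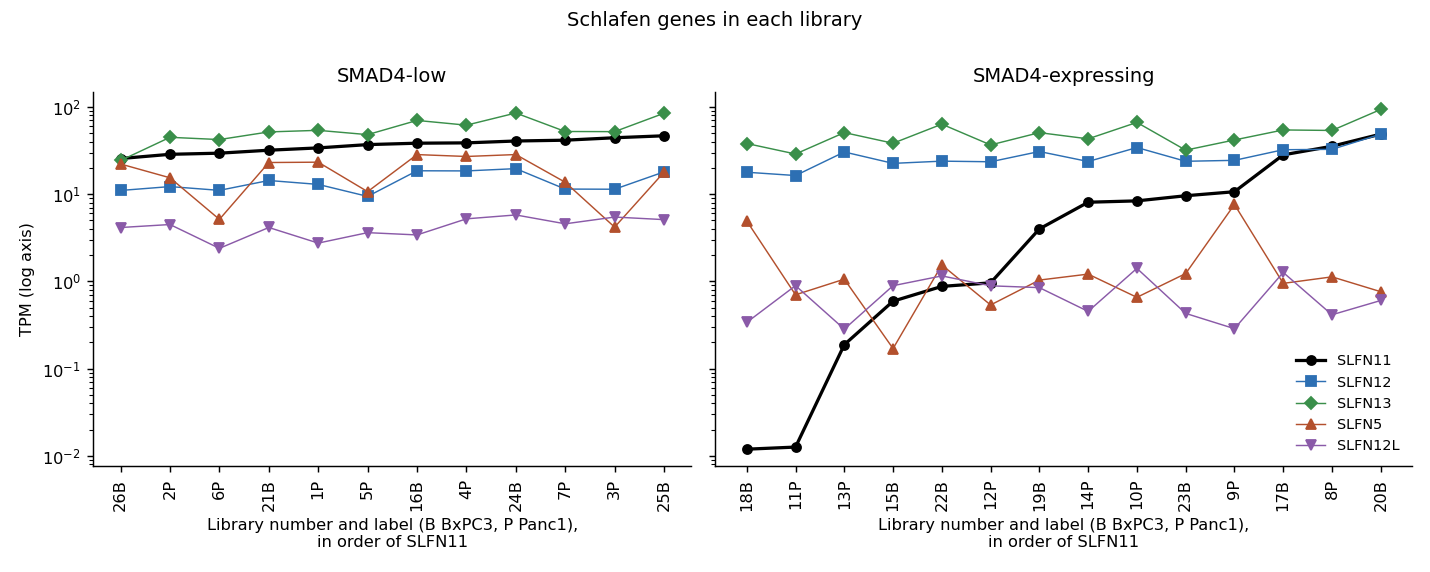
TPM (log axis) of SLFN11 and 4 neighbouring Schlafen genes in each library, ordered by SLFN11 within the SMAD4-low (left) and SMAD4-expressing (right) set, with library number and label on the horizontal axis. SLFN11 runs from 0.0119 to 48.7 TPM on the right, while SLFN12 and SLFN13 stay above 16 TPM in all 14 libraries.

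Ratios within a library do not depend on scaling between libraries. ATR to ATM was at 0.732, 1.00 and 1.63 in the SMAD4-low and 0.204, 0.324 and 0.687 in the SMAD4-expressing libraries, and the ranges did not overlap. How often ratios of other genes separate the sets was not computed, and 30% of single genes had ranges that did not overlap. CHEK1 to CLSPN had a median of 3.92 (2.93 to 5.03) against 2.18 (1.63 to 3.42), and WEE1 to PKMYT1 of 0.434 (0.217 to 0.497) against 0.673 (0.390 to 0.834). ATR to ATRIP had a median of 2.49 against 2.21 and CHEK1 to CHEK2 of 1.91 against 2.22. The ranges of the sets overlapped in these 4 ratios.

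By median level the order in the SMAD4-low set was PKMYT1, TOPBP1, CHEK1, SLFN11, WEE1, CHEK2, ATM, ATR, CLSPN and ATRIP. TOPBP1 exceeded CHEK1, CHEK1 exceeded SLFN11, ATR exceeded CLSPN and CLSPN exceeded ATRIP in 12 of 12 libraries. SLFN11 exceeded WEE1 in 5 and ATM exceeded ATR in 6 of 12, so these neighbours did not differ beyond the spread between clones. In the SMAD4-expressing set the order was PKMYT1, TOPBP1, CHEK1, ATM, WEE1, CHEK2, CLSPN, ATR, ATRIP and SLFN11. There WEE1 exceeded CHEK2 and ATR exceeded ATRIP in 14 of 14 libraries, while TOPBP1 exceeded CHEK1 and CHEK1 exceeded ATM in 8 each and CHEK2 exceeded CLSPN in 7. Only the ranges of ATR and ATRIP in the SMAD4-expressing set were separate among all such neighbours.

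The comparison that the labels give, 12 libraries labelled BxPC3 against 14 labelled Panc1, called none of the 10 genes and 0% of 16008 genes tested by edgeR at an adjusted p under 0.05 and over 2-fold. At an unadjusted p under 0.05 there were 367 genes, which is 2.29% of all, among them WEE1 (p = 0.0479, adjusted p = 1), and DESeq2 called 1 gene and limma 0. With the SMAD4 set as a covariate edgeR again called 0 genes, and 1204 had an unadjusted p under 0.05. The log2 fold change of Panc1 over BxPC3 for SLFN11 was 0.023 ± 0.80 (SE, edgeR adjusted p = 1).

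Several of the genes are known to be transcribed in S and G2 phase, so each was set against MKI67, a proliferation marker at 19.5, 42.6 and 65.7 TPM in the SMAD4-low and 28.0, 51.9 and 84.0 TPM in the SMAD4-expressing libraries. None of the 10 genes had a slope on MKI67 that passed an adjusted p under 0.05 by edgeR in either set, against 0.00596% of 16789 genes in the SMAD4-low and 0.327% of 15881 genes in the SMAD4-expressing set. At an unadjusted p under 0.05, CLSPN passed in the SMAD4-low set, and CLSPN, CHEK2, TOPBP1, WEE1, PKMYT1 and CHEK1 in the SMAD4-expressing set, against 9.37% and 12.2% of all genes tested. DESeq2 called none of the 10 genes in the SMAD4-low and 1, CLSPN, in the SMAD4-expressing set, and limma none in either.

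The r of CLSPN with MKI67 was 0.71 (rho = 0.71) over 12 SMAD4-low and 0.75 (rho = 0.71) over 14 SMAD4-expressing libraries, and 0.49 and 0.60 without the 2 libraries farthest from the median of MKI67. The edgeR adjusted p of its slope was 0.509 and 0.102, and 0.0210 in the SMAD4-expressing set without library 9. The r of CHEK1 was 0.63 and 0.56 (rho = 0.68 and 0.80), of TOPBP1 0.49 and 0.70 (rho = 0.80 and 0.70), and of PKMYT1 0.55 and 0.60 (rho = 0.64 and 0.49), in the same order of sets. Without the 2 farthest libraries r was 0.42 and 0.42 for CHEK1, 0.54 and 0.69 for TOPBP1 and 0.69 and 0.52 for PKMYT1, so that no one of these genes followed MKI67 most closely by every measure. For CHEK2 r was 0.12 and 0.67 (rho = 0.20 and 0.79) and for WEE1 -0.13 and 0.67 (rho = 0.014 and 0.63). The low values in the SMAD4-low set rested partly on the 2 farthest libraries, without which r was 0.45 and 0.71 for CHEK2 and 0.18 and 0.51 for WEE1. The difference of slopes between the sets, added after the data were seen, passed for none of the 10 genes (CHEK2 adjusted p = 0.345, WEE1 adjusted p = 0.266) and for 0.0609% of 18048 genes by edgeR, although WEE1, CHEK2 and ATRIP had an unadjusted p under 0.05, as did 10.7% of all genes. The r of ATR was 0.089 and 0.036, of ATM 0.33 and -0.21 and of SLFN11 0.45 and 0.15. Without the 2 farthest libraries these moved to 0.19 and 0.44 for ATR, 0.46 and 0.23 for ATM and 0.47 and 0.40 for SLFN11. For ATRIP r was -0.14 and 0.46, and -0.12 and 0.36 without these libraries. The 3 SMAD4-expressing libraries with the highest MKI67, numbers 20, 23 and 22 at 76.1, 80.2 and 84.0 TPM, were all labelled BxPC3.

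**Figure D5:**
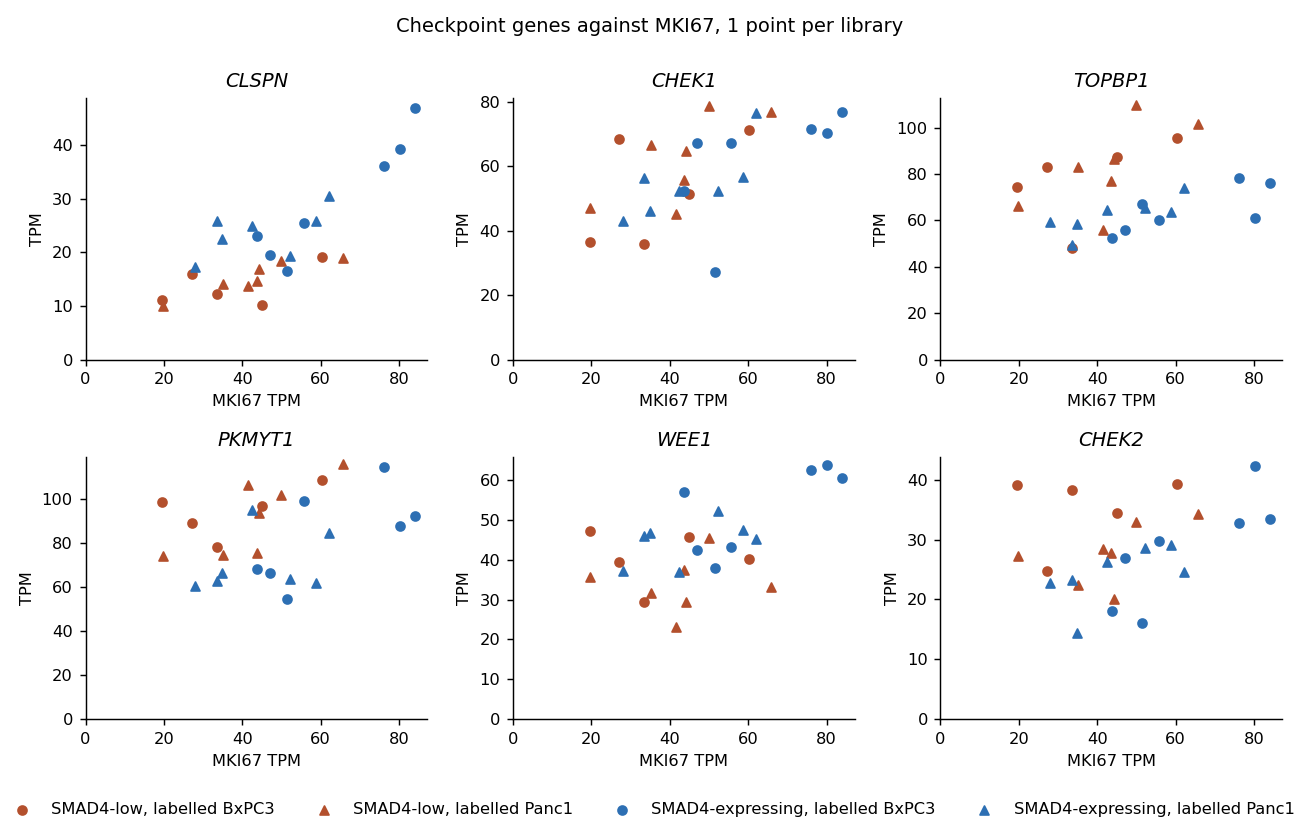
TPM of 6 checkpoint genes against MKI67 TPM, 1 point per library (SMAD4-low red, SMAD4-expressing blue, circles labelled BxPC3, triangles labelled Panc1). CLSPN is higher where MKI67 is higher in both sets (r = 0.71 and 0.75), while r of WEE1 is -0.13 and 0.67 (0.18 and 0.51 without the 2 libraries farthest from the median of MKI67), with a difference of slopes that did not pass the test over all genes.

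Among themselves the 10 genes formed 45 pairs. The correlation was positive in 41 pairs in the SMAD4-low set (median r = 0.45) and in 35 pairs in the SMAD4-expressing set (median r = 0.27). The share of positive pairs among all genes was not computed, so these counts cannot be called particular to the 10 genes. Pairs that share a gene are also not independent. CLSPN and CHEK1 went together in both sets (r = 0.80 and 0.76). ATR went with ATRIP in the SMAD4-low set (r = 0.78) and not in the SMAD4-expressing set (r = -0.25), a difference that was not tested. The lowest value was that of ATR with CHEK1 in the SMAD4-expressing set, r = -0.45 over 14 libraries and -0.16 over 13 without library 18.

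For each gene, the 3 genes most like it were found as those with the highest of the smaller r of both sets, among 12631 other genes with a mean of at least 1 TPM in each set. For CHEK1 these were HYLS1 (0.89), H2AX (0.87) and FAM111B (0.87), all on chromosome 11, as CHEK1 is. For CLSPN they were PRIM1, a primase subunit (0.87), NDC80, of the kinetochore (0.86), and RPAP3 (0.85). For ATM they were ATG16L2 (0.86, also on chromosome 11), RRN3P3 (0.85) and STAG3 (0.84). TOPBP1 was most like ASPM (0.80), CIT (0.80) and PIF1 (0.79), and PKMYT1 like KIF14 (0.76), TTF1 (0.76) and RECQL4 (0.73). WEE1 was most like LRP4 (0.78), CEP192 (0.76) and BRCA2 (0.72), ATRIP like DDX20 (0.78), TATDN2 (0.76) and HMGXB4 (0.75), and ATR like BRD9 (0.71), EIF4G1 (0.70) and TENT4A (0.69). The lowest likeness was for SLFN11, with ACCS (0.71) and TPR (0.70) among its 3, and for CHEK2 with KDM4C (0.68), C5orf34 (0.67) and GGNBP2 (0.65).

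The wider pathway was taken from 8 lists of 47 genes, of which 46 were tested between the SMAD4 sets. By the 2-fold rule 8 were called, 6 higher and 2 lower in the SMAD4-low set, against 39% of all genes. Without the 2-fold limit 19 were higher and 14 lower, against 76.7% of all genes in both directions together. The median size of the difference was 0.46 on the log2 scale, against 0.74 for all genes.

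Upstream of ATR, the clamp of RAD9A, RAD1 and HUS1 that is loaded beside stalled forks had members that differed both ways. RAD9A was at 32.2 to 72.6 TPM in the SMAD4-low and 16.8 to 31.2 TPM in the SMAD4-expressing set (log2 fold change 1.00 ± 0.12, SE, edgeR adjusted p = 8.93e-09). HUS1 was at 15.4 to 25.8 against 46.8 to 70.0 TPM (-1.37 ± 0.10, adjusted p = 8.25e-13). The ranges of the sets did not overlap for either gene. None of the 4 genes of the RPA list or the 4 of the fork protection list was called by the 2-fold rule, though MCM10 was higher (0.86) and RPA3 lower (-0.58) in the SMAD4-low set at an adjusted p under 0.05.

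Of 8 sensors of DNA breaks, MDC1, the scaffold that binds phosphorylated H2AX, was called. It was at 1.90 to 7.08 TPM in the SMAD4-low and 10.95 to 20.9 TPM in the SMAD4-expressing set (log2 fold change -1.68 ± 0.13, SE, edgeR adjusted p = 3.72e-12). RAD50, at 23.5 to 50.3 against 63.4 to 86.7 TPM, came close (-0.94), whereas its partner MRE11 was higher in the SMAD4-low set (0.61, adjusted p = 1.85e-08) and NBN did not pass (-0.09, adjusted p = 0.287). Of the 9 CDK targets and phosphatases, CCNA2, the cyclin of S and G2 phase, was called. It was at 22.9, 34.8 and 51.3 TPM in the SMAD4-low and 0.00051, 7.58 and 33.9 TPM in the SMAD4-expressing libraries (log2 fold change 1.92 ± 0.48, SE, edgeR adjusted p = 0.000672). As with SLFN11, library 18 held the lowest CCNA2 value, with its MKI67 at 51.5 TPM and its TOP2A at 189 TPM. This low value is uncertain, and the part that the division of reads between transcripts had in it was not tested.

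Of the 5 genes for recovery from the checkpoint, BORA, an activator of the kinase PLK1, and PPM1D, a phosphatase that reverses ATM signals, were higher in the SMAD4-low set, by 1.22 ± 0.18 and 1.03 ± 0.11 on the log2 scale (SE, edgeR adjusted p = 6.14e-07 and 9.95e-10). None of the 6 fork remodellers was called by the 2-fold rule, and SMARCAL1 (-0.82) and ZRANB3 (-0.96) were lower in the SMAD4-low set at an adjusted p under 0.05, while FBH1 was higher (0.59).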

How the data were processed

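Messenger RNA of 26 SCDCLs was sequenced once each. The authors quantified transcripts with kallisto 0.46.1 against Ensembl release 103 of GRCh38 and deposited a table with TPM, estimated counts (expected counts scaled by mean transcript length and library total) and 30 kallisto resamples per library. The TPM that the authors deposited were used for levels and ratios, and the deposited estimated counts, rounded, for tests. The deposited mean effective transcript length, another value per gene, was read as bases. Reads assigned between overlapping or near-identical genes are estimates, and at totals of 27035724 to 34945608 estimated counts low values also carry counting error.

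The genes, lists and the SMAD4 split were chosen with earlier results of these data known, and the split follows many other genes. Positions came from GENCODE 44. Groups were taken from the labels, and the sets from SMAD4 under 1 TPM or not, with SMAD4 left out of all counts. Tests used edgeR 4.0.16 in R 4.3.3 (quasi-likelihood, TMM, filterByExpr), with Benjamini-Hochberg adjustment over all genes tested, called at an adjusted p under 0.05 and a log2 fold change beyond 1, without the fold for slopes on log2(MKI67 TPM + 1), with MKI67 left out. The SE is the log2 fold change divided by the square root of the F statistic, and the 95% interval uses the t quantile of the fit's degrees of freedom. Alternatives were DESeq2 1.42.0, limma 3.58.1 on log2(TPM + 1) or log2(TPM + 0.1), other scalings and filters, the label or set as a covariate, TOP2A in place of MKI67, and each library left out (78 fits). The interaction of set and MKI67 and the correlations without library 18 were added after the data were seen. The reported edgeR fits of the SMAD4 sets, the labels and the MKI67 slopes were tested on simulated data. The interaction and the alternatives were not. The simulation used the same setting for spread between libraries in every gene and a small share of changed genes. It therefore cannot show how the fits behave for genes as variable as SLFN11 or where many genes differ. From each pathway list up to 2 called genes per direction with the largest log2 fold change were named; others named beside them, TREX1, STT3A and library 18 were chosen after their values were seen. Descriptions used Python 3.11.15 with pandas 2.3.3. The study's response groups are not in the labels and were not analysed here, and a few genes that the naming rules pick are not reported here.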

Additional observations from a re-analysis of the deposited data

How the results depend on the processing

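Between the SMAD4 sets, 2 of the 10 genes (SLFN11 and ATM) were called by edgeR in the reported fit. The same 2 genes were called in all 8 alternatives, DESeq2 and limma among them, and by edgeR with each of 26 libraries left out. The log2 fold change of SLFN11 was 1.68 to 3.61 over the alternatives, the highest with limma on log2(TPM + 0.1), and that of ATM -1.16 to -1.10. The direction of CHEK1, which was not called, turned to -0.0145 with library totals only, -0.0202 with no filter, -0.00376 and -0.00372 with limma on log2(TPM + 1) and log2(TPM + 0.1) and -0.00278 with the label as a covariate, and was -0.052 (without library 18) to 0.046 (without library 24). With no filter 10222 of 29051 genes tested were called, against 6236 of 16007. ATRIP had an adjusted p of 0.0494 with DESeq2 and by edgeR of 0.0245 without library 23 and 0.0434 without library 24, and CHEK2 of 0.0450 without library 23. Between the labels DESeq2 called 1 gene.

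Counts along MKI67 moved most. In the SMAD4-low set, against 1 gene of all genes, there were 119 with DESeq2, 2 with limma, 4 with TOP2A, 0 without the 2 libraries farthest from the median and 0 to 1 with each library left out. In the SMAD4-expressing set, against 52, there were 359 with DESeq2, 113 with limma, 0 with the label as a covariate, 120 with TOP2A, 0 without the 2 farthest libraries and 0 (without library 14) to 127 (without library 9). Of the 10 genes 1, CLSPN, was called there with DESeq2, 1, also CLSPN, with TOP2A, and 0 to 1 with each library left out. Uncalled slopes turned sign in the SMAD4-low set for ATR (0.037 limma, 0.30 TOP2A, -0.15 to 0.023 leaving out libraries), CHEK2 (0.068 limma, 0.017 label, 0.19 without the 2 farthest, -0.12 to 0.12), ATRIP (0.17 TOP2A) and WEE1 (0.21 TOP2A, 0.0088 without the 2 farthest). In the SMAD4-expressing set they did for ATM (0.0032 label, 0.15 without the 2 farthest, -0.36 to 0.017) and ATR (-0.0044 TOP2A, -0.043 to 0.098). The cause was not tested. No paired analysis was possible because the labelled lines share no replicate numbers.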
